A study of Rattus norvegicus with 65 samples.

Results

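The receptors of the ErbB family and their ligands were followed in primary neonatal rat cardiomyocytes exposed to 3 drugs. The set holds 9 genes chosen by name, 4 receptors (Egfr, Erbb2, Erbb3, Erbb4) and 5 ligands (Nrg1, Hbegf, Areg, Ereg, Btc). All 9 had a row among the 14554 genes counted. RNA sequencing gave 65 libraries in 10 groups of 6 or 7. Cells received 10 mM 5FU (5-fluorouracil, a pyrimidine analogue used in chemotherapy), 2.5 mM Ace (acetaminophen, an analgesic) or 1.25 µM Dox (doxorubicin, an anthracycline that poisons topoisomerase II), for 6 or 24 h. The 5FU groups were compared with DMSO1, the 1% DMSO vehicle, and the Ace and Dox groups with DMSO2, the 0.25% vehicle, at the same time. At 6 h the groups held 6 libraries of DMSO1, 5FU and Ace and 7 of DMSO2 and Dox, and at 24 h 6 libraries of DMSO1 and 5FU and 7 of DMSO2, Ace and Dox. All cells, controls included, came from hearts of several litters that were mixed before plating and were starved of serum overnight, so the libraries are parallel cultures of 1 mixed preparation and not separate animals, and the p-values measure the spread between cultures only.

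ErbB receptors are tyrosine kinases of the cell surface that work in pairs. EGFR, ErbB3 and ErbB4 bind ligands of the EGF family, whereas ErbB2 has no known ligand of its own and serves as the favoured partner of the others, and ErbB3 signals mainly through its partners because its own kinase is weak. In the heart, neuregulin 1 made by the endothelium acts on ErbB4 of cardiomyocytes, ErbB2 is needed for this signal, and antibodies that block ErbB2 in cancer raise the cardiac risk of anthracyclines. The ligands are made as membrane-bound precursors that proteases of the ADAM family cut free.

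Levels are given as CPM, the counts of a gene relative to the total of its library, scaled by the trimmed mean of M-values (TMM), as the lowest, the median and the highest library of a group. They were not divided by gene length, so they are compared between groups of 1 gene and not between genes. Differences are log2 fold changes with their standard error (SE), and a gene was called where its false discovery rate (FDR), from edgeR's quasi-likelihood test with Benjamini-Hochberg adjustment over all 14554 genes, was below 0.01. The libraries held 14332827 to 25738297 counts. Of 10 cardiomyocyte markers, 9 had a row, and none of these was at 0 throughout any group. Their summed level had a median of 39542 CPM in DMSO2 at 24 h. Fibroblast markers (10 of 10 with a row) summed to a median of 16666 CPM there, endothelial markers (9 of 10) to 415 CPM and macrophage markers (10 of 10) to 147 CPM. The cultures therefore held transcripts of several cell types, and in such bulk samples fewer cells of a type and less RNA per cell cannot be told apart.

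In the drug-free cultures the set already moved with time. Egfr, Erbb4 and Btc were higher at 24 h than at 6 h, and Erbb3 and Areg were lower, in both vehicles. In DMSO1, 6 of the 9 genes passed the test, where 53.8% of all genes did, and in DMSO2 5 passed, where 52.6% did. Erbb4, the neuregulin receptor of cardiomyocytes, ranged from 9.83 through 10.2 to 13.98 CPM in DMSO2 at 6 h and from 19.6 through 24.6 to 25.5 CPM at 24 h. These groups did not overlap, and Erbb4 rose by 1.08 ± 0.10 (SE) on the log2 scale, which is 2.11-fold (FDR 8.24e-15). In DMSO1 the same change was 1.04 ± 0.11 (FDR 6.2e-13).

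Erbb3 went the other way. In DMSO1 it ranged from 2.24 through 3.29 to 3.63 CPM at 6 h and from 0.914 through 1.16 to 1.67 CPM at 24 h, without overlap, a change of -1.30 ± 0.19 (FDR 3.58e-08). In DMSO2 it was -0.73 ± 0.18 (FDR 0.000409), with groups that met at their edges. Areg, which encodes amphiregulin, a ligand of EGFR, fell by 1.38 on the log2 scale in DMSO1 (FDR 1.36e-06) and by 1.45 in DMSO2 (FDR 4.81e-07). Hbegf, which encodes the heparin-binding ligand of EGFR and ErbB4, was lower at 24 h in DMSO1 by -0.94 ± 0.12 (FDR 8.66e-10), while in DMSO2 the value was -0.31 ± 0.12 and was not called (FDR 0.0188). The latter was called with library size as the only scaling (-0.38, FDR 0.00414) and in a fit of the compared groups alone (-0.34, FDR 0.0014).

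Between the vehicles, Hbegf differed at 6 h and no gene of the set was called at 24 h. At 6 h, 1 of the 9 was called between DMSO1 and DMSO2, where 16.5% of all genes were. Hbegf was at 8.63, 18.4 and 23.9 CPM (lowest, median and highest) in DMSO1 and 8.40, 9.55 and 10.9 CPM in DMSO2, a difference of 0.84 ± 0.11 (FDR 6.64e-08). The DMSO1 libraries were spread widely, and the lowest of them lay inside the DMSO2 range. The summed smooth muscle markers (5 of 5 with a row, none at 0 throughout) were also spread widely in DMSO1 at 6 h, from 984 to 4251 CPM against 817 to 1202 CPM in DMSO2. The endothelial sum was lower in DMSO1 without overlap, at 218 to 300 against 324 to 410 CPM. The cardiomyocyte sum was 38660 to 49541 against 33384 to 39870 CPM and the fibroblast sum 6546 to 10964 against 9739 to 14517 CPM, both overlapping. The macrophage, epicardial and Schwann cell sums overlapped too. The part of any cell type in the Hbegf difference was not tested. At 24 h edgeR called 0 of the 9 between the vehicles, where 0.433% of all genes were called. DESeq2 also called 0, and 0 of the 9 had an unadjusted p below 0.05.

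**Figure D1:**
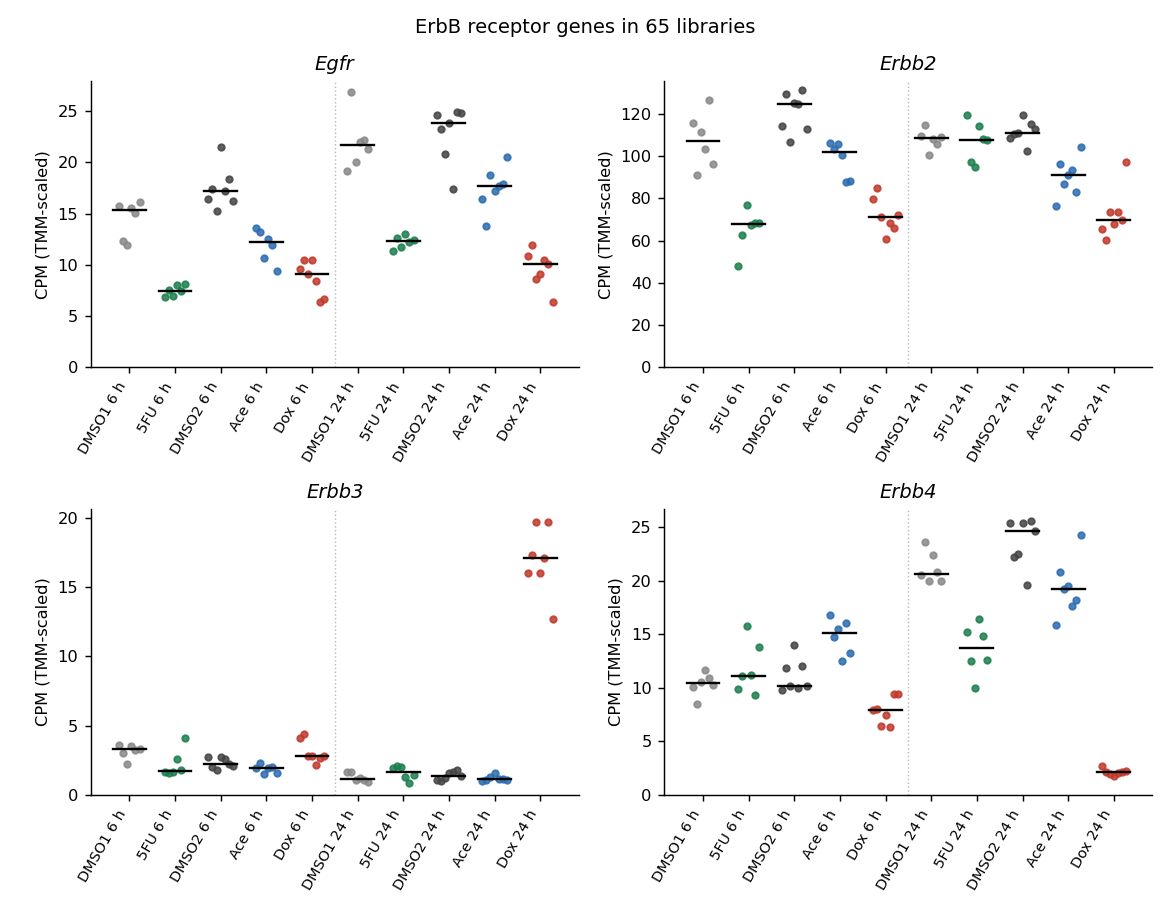
The 4 receptor genes in every library. Each point is 1 library, the vertical axis is its TMM-scaled CPM from 0, the horizontal axis lists the 10 groups, the bar is the group median and the dotted line parts 6 h from 24 h. Erbb3 stands at 12.7 to 19.7 CPM in Dox at 24 h, above every other library, and Erbb4 at 1.81 to 2.68 CPM, below every other library.

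Among the receptors, Egfr responded most evenly to the drugs. It was lower than in its own control in all 6 drug comparisons, and called in each. At 6 h it ranged from 6.83 through 7.49 to 8.17 CPM with 5FU against 11.9 through 15.3 to 16.1 CPM in DMSO1, a change of -0.95 ± 0.11 (FDR 1.39e-10). With Dox it ranged from 6.36 through 9.12 to 10.5 CPM and with Ace from 9.40 through 12.2 to 13.6 CPM, against 15.2 through 17.3 to 21.5 CPM in DMSO2. Each of these drug groups lay below its control without overlap, with changes of -0.997 ± 0.10 for Dox (FDR 4.7e-13) and -0.56 ± 0.11 for Ace (FDR 1.24e-05).

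At 24 h Egfr stayed lower with every drug. The levels were 11.3, 12.4 and 13.02 CPM with 5FU against 19.2, 21.7 and 26.9 CPM in DMSO1, a change of -0.84 ± 0.11 (FDR 7.71e-10). With Dox they were 6.34, 10.1 and 11.95 CPM and with Ace 13.8, 17.7 and 20.6 CPM, against 17.4, 23.8 and 24.9 CPM in DMSO2. The Dox and 5FU groups did not meet their controls, whereas the Ace group overlapped its control. Egfr fell by 1.25 on the log2 scale with Dox (SE 0.10, 2.38-fold lower, FDR 1.41e-17) and by 0.38 with Ace (SE 0.10, FDR 0.000792). The differences between the effects on Egfr at 24 and at 6 h were not called, at 0.11 for 5FU (95% interval -0.21 to 0.42), 0.18 for Ace (-0.11 to 0.46) and -0.25 for Dox (-0.54 to 0.04). In the order of the 10 group medians, from 23.8 CPM in DMSO2 at 24 h down to 7.49 CPM in 5FU at 6 h, every group overlapped its neighbour.

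Erbb2, the partner receptor without a ligand, was lower with each drug at 6 h. It ranged from 47.9 through 67.7 to 77.0 CPM with 5FU against 91.0 through 107 to 127 CPM in DMSO1, a change of -0.72 ± 0.09 (FDR 1.15e-10). With Dox it was 60.8, 71.0 and 84.8 CPM and with Ace 87.6, 102 and 106 CPM, against 107, 125 and 131 CPM in DMSO2. The Ace and DMSO2 libraries came within 1 CPM of each other at their edges without crossing, and the change was -0.29 ± 0.08 for Ace (FDR 0.00281) and -0.75 ± 0.08 for Dox (FDR 9.66e-13). The Ace call was lost when Ace library 5 (FDR 0.0123), Ace library 6 (FDR 0.0152) or DMSO2 library 6 (FDR 0.0115) was left out.

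At 24 h the lower Erbb2 level of the 5FU cultures was gone. The level was 95.003, 108 and 119 CPM with 5FU and 101, 109 and 115 CPM in DMSO1, a difference of -0.01 ± 0.09 (FDR 0.895). The 5FU effect itself differed between the times by 0.70 ± 0.12 (FDR 1.76e-06). Dox still lowered Erbb2, with 60.1, 69.6 and 97.3 CPM against 102, 111 and 119 CPM in DMSO2, without overlap (-0.62 ± 0.08, FDR 2.07e-10). Ace gave 76.3, 91.3 and 104 CPM, overlapping DMSO2, and -0.30 ± 0.08 (FDR 0.00102). No group was set apart from its neighbour in the order of the Erbb2 medians, which spanned 1.84-fold.

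Erbb3, the receptor with a weak kinase, was raised by Dox at 24 h and was not called in the other 5 drug comparisons. In Dox at 24 h it stood at 12.7, 17.1 and 19.7 CPM against 0.991, 1.40 and 1.80 CPM in DMSO2, which in counts is 266 to 336 against 18 to 38. Every Dox library was above every library of the other 9 groups. The difference was 3.59 ± 0.17 (FDR 2.04e-29), or 12.03-fold, and 3.46% of all genes rose by more. At 6 h Dox gave 2.20, 2.82 and 4.41 CPM against 1.78, 2.23 and 2.76 CPM in DMSO2, a difference of 0.43 ± 0.17 that was not called (FDR 0.0184). Without Dox library 5 it was called (0.50, FDR 0.00761), as it was by DESeq2 (0.46, FDR 0.0082). The Dox effect on Erbb3 was 3.16 ± 0.24 higher at 24 h than at 6 h (FDR 8.26e-19).

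With 5FU at 6 h, Erbb3 was 1.57, 1.74 and 4.08 CPM against 2.24, 3.29 and 3.63 CPM in DMSO1, and the value of -0.50 ± 0.18 was not called (FDR 0.0141). A single 5FU library, number 6, held the 4.08 CPM, and without it the Erbb3 difference was -0.76 (FDR 0.000145). It was also called without DMSO1 library 3 (-0.58, FDR 0.00541) and with library size as the only scaling (-0.57, FDR 0.00703). The difference with Ace was -0.31 ± 0.18 at 6 h (FDR 0.165) and -0.22 ± 0.20 at 24 h (FDR 0.375). At 18 to 38 counts a library in the 24 h control, the precision of Erbb3 is limited by its depth.

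Erbb4 fell with Dox in the same cultures in which Erbb3 rose. At 24 h it ranged from 1.81 through 2.15 to 2.68 CPM in Dox against 19.6 through 24.6 to 25.5 CPM in DMSO2, or 30 to 55 counts against 368 to 539. The difference was -3.44 ± 0.12 (FDR 5.44e-36), 10.9-fold lower, and 1.33% of all genes fell by more. At 6 h Dox gave 6.34, 7.96 and 9.42 CPM against 9.83, 10.2 and 13.98 CPM, again without overlap, and -0.50 ± 0.11 (FDR 2.34e-05). Between the times the Dox effect on Erbb4 changed by -2.94 ± 0.16 (FDR 7.2e-25). In DMSO2 the Erbb4 level rose with time, as given above, whereas its median in Dox went from 7.96 CPM at 6 h to 2.15 CPM at 24 h.

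The other drugs moved Erbb4 less. Ace raised it at 6 h, from 9.83, 10.2 and 13.98 CPM in DMSO2 to 12.53, 15.1 and 16.8 CPM, by 0.41 ± 0.10 (FDR 0.00101) with groups that overlapped. At 24 h Ace gave 15.8, 19.2 and 24.2 CPM and a difference of -0.28 ± 0.10 (FDR 0.0106), so that the Ace effect differed between the times by -0.69 ± 0.14 (FDR 0.000172). That value at 24 h was called without Ace library 7 (FDR 0.00223) or without DMSO2 library 5 (FDR 0.00435). 5FU gave 9.95, 13.7 and 16.4 CPM at 24 h against 19.96, 20.6 and 23.6 CPM in DMSO1, without overlap, a change of -0.64 ± 0.11 (FDR 3.27e-07), and 0.20 ± 0.11 at 6 h, which was not called (FDR 0.121).

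**Figure D2:**
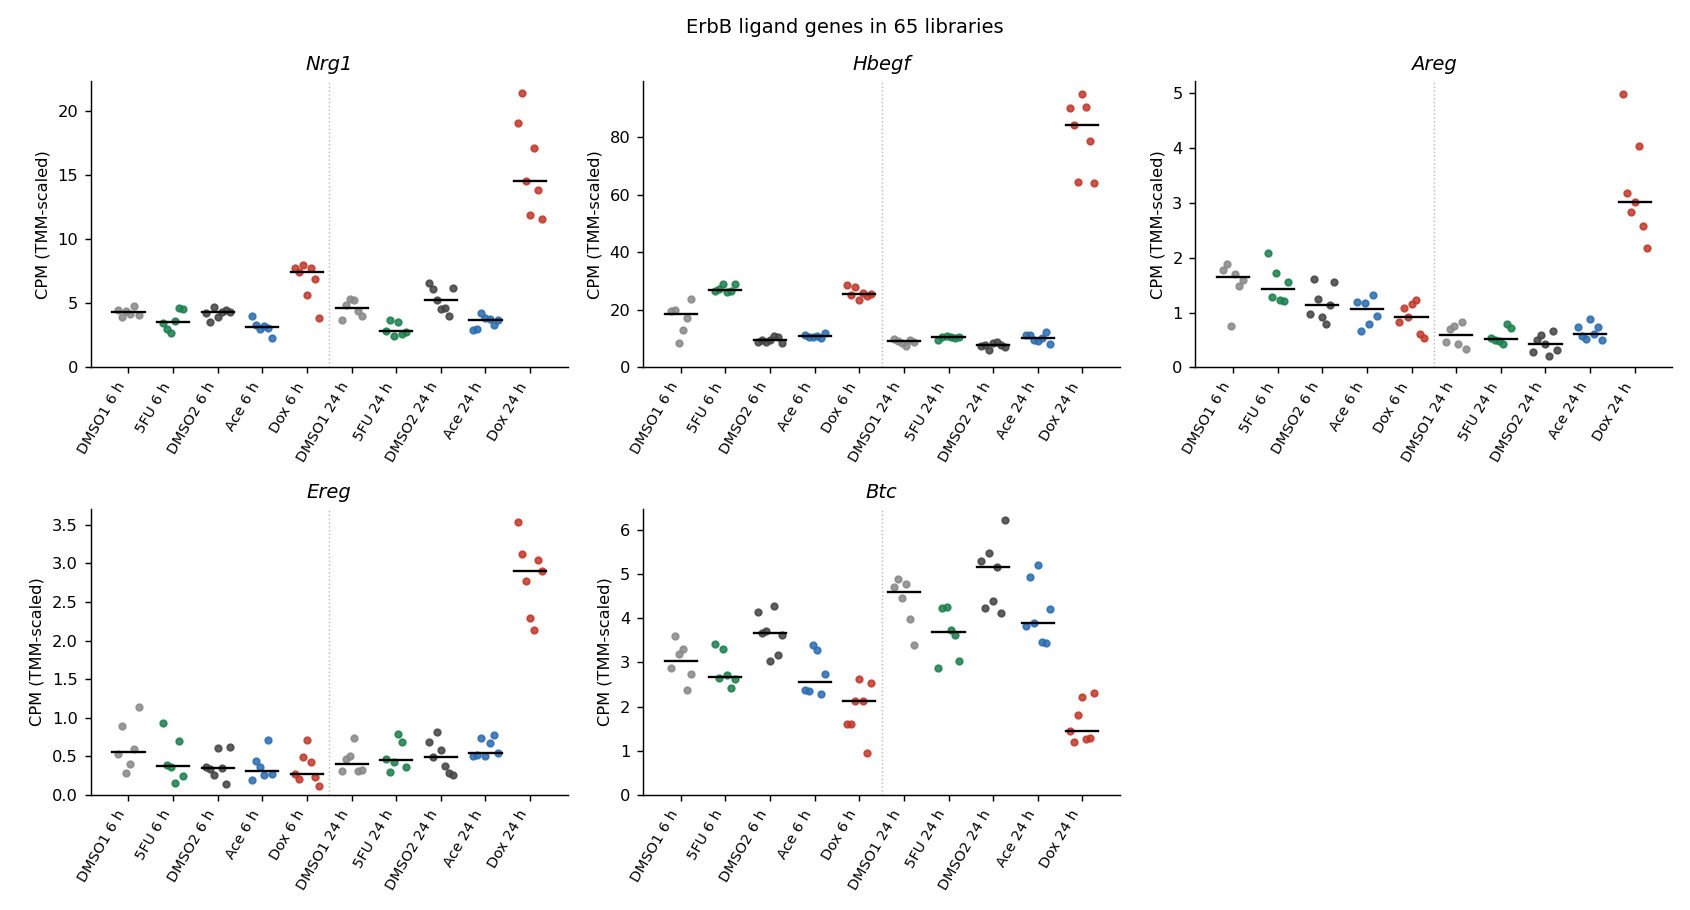
The 5 ligand genes in every library. Points, bars, axes and groups are as for the receptors. In Dox at 24 h the libraries of Nrg1, Hbegf, Areg and Ereg lie above all others, with Hbegf at 63.996 to 95.2 CPM, while those of Btc lie at 1.19 to 2.30 CPM, below those of the 24 h controls.

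Among the ligands, Nrg1 was raised by Dox at both times and lowered by 5FU and Ace at 24 h. Nrg1 encodes neuregulin 1, the ligand of ErbB3 and ErbB4, in many isoforms that the gene-level counts do not separate. At 24 h it ranged from 11.6 through 14.6 to 21.4 CPM in Dox against 4.02 through 5.30 to 6.62 CPM in DMSO2, without overlap, a difference of 1.55 ± 0.13 (2.93-fold, FDR 2.24e-17). At 6 h Dox gave 3.82, 7.46 and 7.98 CPM against 3.57, 4.31 and 4.71 CPM. A single Dox library, number 7, lay within the control range, and the difference was 0.68 ± 0.13 (FDR 9.16e-06). Nrg1 fell by 0.61 on the log2 scale with 5FU at 24 h (SE 0.16, FDR 0.000535), to 2.47, 2.83 and 3.72 CPM against 3.66, 4.60 and 5.33 CPM in DMSO1. With Ace at 24 h it fell by 0.59 (SE 0.14, FDR 0.000282), to 2.96, 3.71 and 4.21 CPM. Both of these groups overlapped their controls at the edge. The summed endothelial markers (9 of 10 with a row, none at 0 throughout) were also lower in both, at 180 to 208 against 275 to 379 CPM with 5FU and 229 to 360 against 365 to 460 CPM with Ace. They were lower with Dox too, where Nrg1 was higher, at 157 to 225 against 365 to 460 CPM at 24 h. At 6 h they were at 175 to 225 CPM in Dox against 324 to 410 CPM in DMSO2. The part of the endothelial cells in the Nrg1 levels was not tested. The 6 h values, -0.23 ± 0.15 for 5FU (FDR 0.184) and -0.41 ± 0.15 for Ace (FDR 0.0205), were not called, the latter becoming called without Ace library 1 (FDR 0.00888).

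Hbegf was raised in 4 of the 6 drug comparisons and lowered in 0. In Dox it stood at 23.6, 25.4 and 28.6 CPM at 6 h against 8.40, 9.55 and 10.9 CPM in DMSO2, and at 63.996, 84.5 and 95.2 CPM at 24 h against 6.05, 7.67 and 8.77 CPM. Neither pair of groups overlapped. The differences were 1.44 ± 0.11 (2.72-fold, FDR 1.87e-18) at 6 h and 3.41 ± 0.11 (10.6-fold, FDR 3.59e-37) at 24 h, with 3.84% of all genes rising by more at 24 h. The increase from 6 to 24 h of the Dox effect on Hbegf was 1.96 ± 0.16 (FDR 1.07e-17).

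With 5FU at 6 h Hbegf stood at 26.3, 27.1 and 29.1 CPM, above all of the widely spread DMSO1 libraries, with a difference of 0.70 ± 0.11 (FDR 3.24e-07). At 24 h 5FU gave 9.49, 10.4 and 10.8 CPM against 7.33, 9.04 and 9.94 CPM, overlapping, and 0.22 ± 0.13 was not called (FDR 0.116). The Ace groups stood at 10.2, 10.8 and 12.1 CPM at 6 h, which was not called (0.20 ± 0.12, FDR 0.17), and at 8.21, 10.1 and 12.2 CPM at 24 h, which was called but overlapped its control (0.42 ± 0.12, FDR 0.00213).

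Areg and Ereg, which encode the EGFR ligands amphiregulin and epiregulin, the latter also a ligand of ErbB4, were called in 1 of the 6 drug comparisons each, Dox at 24 h. Areg stood there at 2.18, 3.01 and 4.98 CPM against 0.213, 0.428 and 0.663 CPM in DMSO2, or 44 to 93 counts against 4 to 14. Ereg stood at 2.14, 2.91 and 3.54 CPM against 0.259, 0.495 and 0.815 CPM, or 37 to 72 counts against 5 to 14. Both genes were higher in every Dox library than in any library of the other groups. The differences were 2.91 ± 0.22 for Areg (7.51-fold, FDR 5.63e-19) and 2.51 ± 0.27 for Ereg (5.69-fold, FDR 4.24e-13).

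At 6 h neither gene was called with Dox, at -0.37 ± 0.22 for Areg (FDR 0.119) and -0.12 ± 0.35 for Ereg (FDR 0.77). The Dox effect differed between the times by 3.28 ± 0.31 for Areg (FDR 1.6e-14) and 2.63 ± 0.45 for Ereg (FDR 5.16e-07). With Ace at 24 h Areg was at 0.495, 0.614 and 0.877 CPM, a difference of 0.60 ± 0.26 that was not called (FDR 0.0521). Outside Dox at 24 h Ereg had 2 to 22 counts a library, and at this depth its 95% intervals were wide, for 5FU at 6 h from -1.10 to 0.23.

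Btc, which encodes betacellulin, a ligand of EGFR and ErbB4, was the ligand that fell with Dox. It was at 0.960, 2.12 and 2.63 CPM at 6 h against 3.02, 3.66 and 4.28 CPM in DMSO2, and at 1.19, 1.45 and 2.30 CPM at 24 h against 4.12, 5.15 and 6.21 CPM. The groups did not overlap at either time, and the differences were -0.91 ± 0.15 (FDR 1.93e-07) and -1.58 ± 0.15 (2.99-fold lower, FDR 3.29e-15). The effect was larger at 24 h by -0.67 ± 0.21 (FDR 0.00386), a call that was lost when Dox library 2 or 6 at 24 h or Dox library 4 or 7 at 6 h was left out (FDR 0.0108 to 0.0127). The 4 comparisons of Btc with 5FU and Ace gave values from -0.42 to -0.08, none of them called.

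Btc, Areg and Ereg lie next to each other in this order among the protein-coding genes of chromosome 14 in the RefSeq annotation of the GRCr8 build, so that genes that rose and a gene that fell with Dox at 24 h are neighbours. RefSeq promoter windows were found for 6 of the 9 genes (Egfr, Erbb2, Erbb4, Hbegf, Areg and Btc). The 250 bases before the start sites of Areg and Btc are shown because these neighbours moved in opposite directions, and those of Erbb4 because no other member fell as far. They lie at chr14:17265642-17265891 on the minus strand, chr14:16992418-16992667 on the plus strand and chr9:78045607-78045856 on the minus strand of GRCr8 and are written 5′ to 3′, with matches to the motifs searched in capitals.
Areg: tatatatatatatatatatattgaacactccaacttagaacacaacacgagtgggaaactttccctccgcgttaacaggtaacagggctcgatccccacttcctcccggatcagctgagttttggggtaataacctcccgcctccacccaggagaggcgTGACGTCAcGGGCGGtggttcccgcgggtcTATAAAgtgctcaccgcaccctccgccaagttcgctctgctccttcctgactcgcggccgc
Btc: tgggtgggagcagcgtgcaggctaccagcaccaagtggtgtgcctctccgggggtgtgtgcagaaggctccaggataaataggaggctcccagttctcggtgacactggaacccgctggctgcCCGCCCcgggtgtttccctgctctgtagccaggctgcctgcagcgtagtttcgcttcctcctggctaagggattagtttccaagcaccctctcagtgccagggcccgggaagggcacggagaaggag
Erbb4: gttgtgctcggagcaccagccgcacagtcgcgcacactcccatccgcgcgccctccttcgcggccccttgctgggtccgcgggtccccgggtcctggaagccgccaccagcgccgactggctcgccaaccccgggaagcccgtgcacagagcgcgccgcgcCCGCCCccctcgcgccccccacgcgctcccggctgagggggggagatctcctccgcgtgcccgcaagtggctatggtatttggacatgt
The motifs, searched on both strands, were the TATA box (TATAAA), the cAMP response element (TGACGTCA), the AP-1 site (TGANTCA), the CCAAT box (CCAAT), the GC box (GGGCGG) and the half-site of p53. The Areg window held a cAMP response element starting 91 bases before the start site, a GC box at 82 bases and a TATA box at 61 bases. Of 33469 windows of this length, 1.59% held the cAMP response element, 12.9% the TATA box and 30.5% the GC box. The Btc and Erbb4 windows held 1 GC box each, at 127 and 89 bases, and no match to the other motifs. In the Egfr window there was 1 GC box, in the Erbb2 window a CCAAT box and a GC box, and in the Hbegf window a CCAAT box, a motif found in 34% of windows. The AP-1 site, held by 6.34% of windows, and the p53 half-site, held by 6.64%, had no match in these 6 windows. A match is a run of letters, and no binding was measured.

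**Figure D3:**
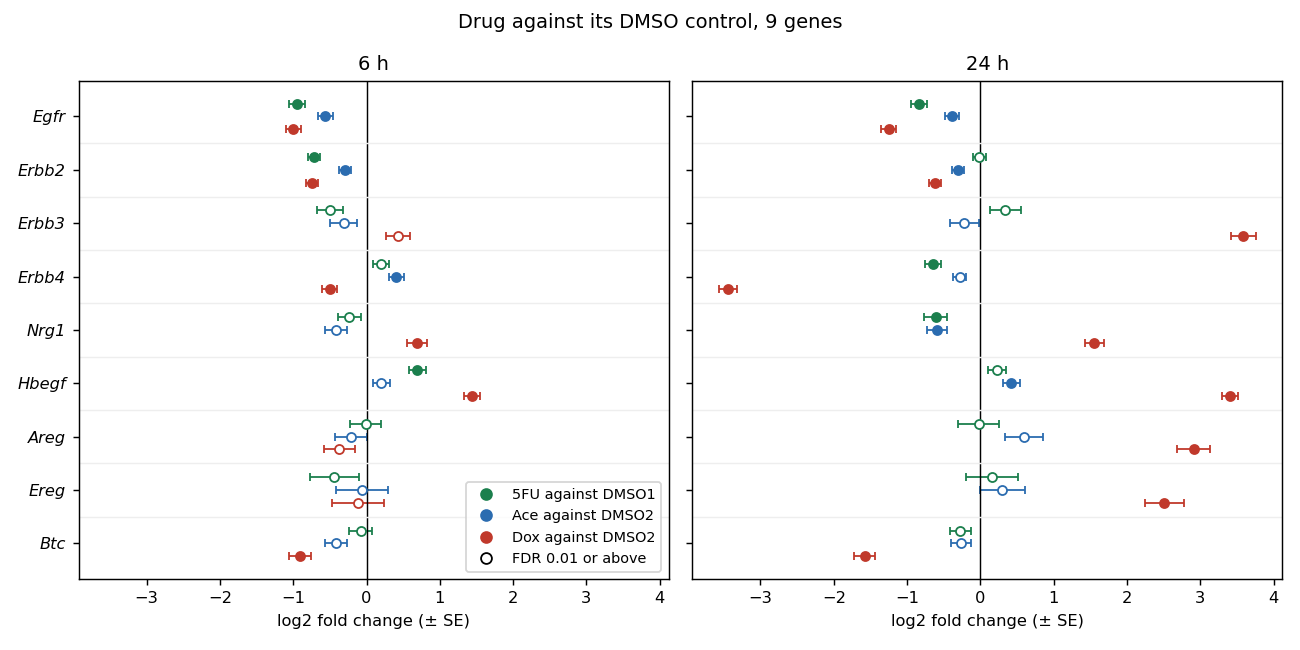
The change of each gene with each drug at 6 and 24 h. The horizontal axis is the log2 fold change against the matching DMSO control with bars of 1 SE, filled points passed an FDR of 0.01 and open points did not. At 24 h the Dox points run from -3.44 for Erbb4 to 3.59 for Erbb3, while the 5FU and Ace points stay between -0.84 and 0.60.

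Counted by comparison, the set was affected most by Dox. At 6 h, 3 of the 9 genes were called with 5FU (47.9% of all genes were), 3 with Ace (31.7%) and 6 with Dox (64.2%). At 24 h the counts were 3 with 5FU (55.8% of all genes), 4 with Ace (37.2%) and 9 with Dox (81.4%). With so many genes called in all, the counts alone do not set the family apart. Of the called genes, 8 also had a log2 change of 1 or more in either direction with Dox at 24 h (39.1% of all genes) and 1 with Dox at 6 h (15.4%). With 5FU there were 0 at 6 h (6.03% of all genes) and 0 at 24 h (10.2%), and with Ace 0 at 6 h (2.64%) and 0 at 24 h (6.12%). The groups of all 9 genes did not overlap with Dox at 24 h, where those of 68.2% of all genes did not. The set was split there, with 5 genes called higher, at 1.55 to 3.59, and 4 called lower, at -0.62 to -3.44. Over all genes, 40.42% were called higher and 40.98% lower. The median change of the 9 genes, 1.55, was the value of Nrg1, the smallest of the increases. It does not describe a shift shared by the set. With Dox at 6 h the median was -0.37, the value of Areg, which was not called. The medians over all genes were 0.0028 at 24 h and 0.0030 at 6 h. Between 6 and 24 h the effect of 5FU was called as differing in 3 of the 9 genes (39.5% of all genes), that of Ace in 1 (11.6%) and that of Dox in 7 (64.8%).

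The drugs were also compared with each other. Ace and Dox share the DMSO2 libraries, so they were set against each other directly. Dox differed from Ace in 7 of the 9 genes at 6 h (62.1% of all genes) and in 9 at 24 h (80.6%). At 24 h Erbb3 was 3.81 ± 0.17 higher in Dox than in Ace (FDR 1.82e-30), Erbb4 was -3.16 ± 0.12 (FDR 7.56e-34), Hbegf 2.98 ± 0.11 (FDR 7.48e-35) and Nrg1 2.15 ± 0.13 (FDR 4.56e-23). At 6 h the gene with the greatest difference among the 9 was Hbegf, at 1.24 ± 0.11 (FDR 5.04e-15), followed by Nrg1 at 1.10 ± 0.15 (FDR 1.23e-09) and Erbb4 at -0.91 ± 0.11 (FDR 3.13e-11). The call of Btc at 6 h (-0.49 ± 0.16, FDR 0.00451) was lost in 5 of the 13 fits that left out 1 library of these groups, Ace library 3 or 4 or Dox library 1, 2 or 6.

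Each drug effect against its own vehicle was next compared between Dox and 5FU. These effects differed in 5 of the 9 genes at 6 h (45.9% of all genes) and in 8 at 24 h (71.1%). At 6 h the Egfr effects of Dox and 5FU differed by -0.05 (95% interval -0.36 to 0.26) and the Erbb2 effects by -0.03 (-0.26 to 0.21), neither of which was called. Erbb3 differed by 0.93 ± 0.24 (FDR 0.000918), Btc by -0.83 ± 0.21 (FDR 0.000749), Erbb4 by -0.70 ± 0.15 (FDR 7.02e-05), Nrg1 by 0.92 ± 0.20 (FDR 9.4e-05) and Hbegf by 0.75 ± 0.16 (FDR 4e-05). The Hbegf levels of the drug groups themselves overlapped at 6 h, with medians of 25.4 CPM in Dox and 27.1 CPM in 5FU. Their vehicles differed, with medians of 9.55 CPM in DMSO2 and 18.4 CPM in DMSO1 (0.84, FDR 6.64e-08). The Hbegf value thus holds this vehicle difference. At 24 h the receptor left uncalled was Egfr, at -0.41 ± 0.15 (FDR 0.011), which passed without DMSO1 library 2, DMSO2 library 3 or 5, or Dox library 1 or 2 (FDR 0.00379 to 0.00899). The Erbb2 effects, whose difference was not called at 6 h, differed by -0.60 ± 0.12 at 24 h (FDR 5.18e-06).

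Across all 65 libraries, the genes whose log2 CPM followed each member most closely were Lamb1 (Pearson r = 0.946) and Adcyap1r1 (0.935) for Egfr, Synj2 (0.862) and Dock8 (0.849) for Erbb2, Bid (0.945) and Als2cl (0.932) for Erbb3, and Mia3 (0.963) and Sspn (0.962) for Erbb4. For the ligands they were Efs (0.933) and Adamts1 (0.932) for Nrg1, Klf5 (0.967) and Ipmk (0.959) for Hbegf, Pus1 (0.865) and Plpp2 (0.864) for Areg, and Ift81 (0.871) and Fign (0.869) for Btc. Ereg, with a median of 9 counts, was below the minimum of 10 set for this search. The libraries share their groups, so these values describe how alike the patterns over the 10 groups are.

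**Figure D4:**
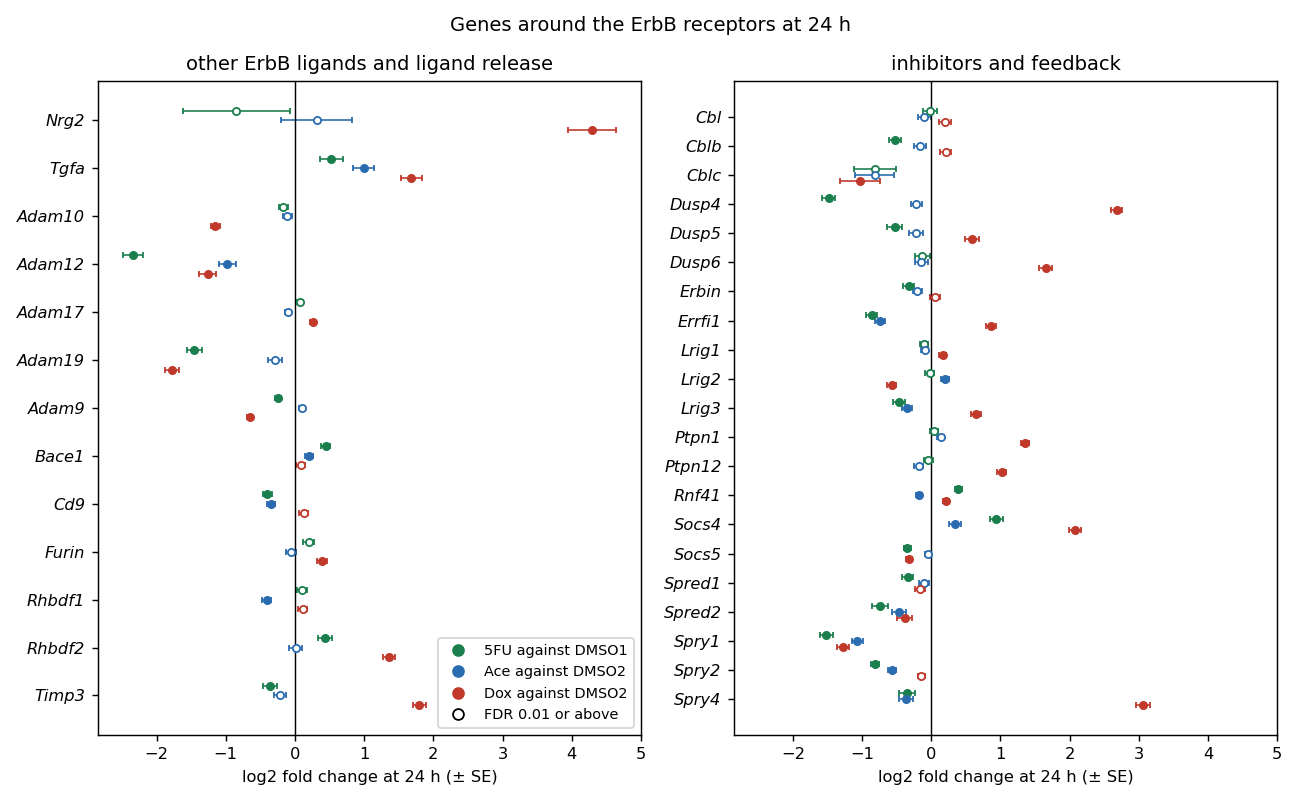
Other ligands, genes of ligand release and inhibitors of the receptors at 24 h. The horizontal axis is the log2 fold change of each drug against its DMSO control with bars of 1 SE, and open points had an FDR of 0.01 or above. Spry4 reaches 3.06 and Dusp4 2.68 with Dox, whereas Dusp4 lies at -1.48 with 5FU.

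The genes around the receptors were counted in 4 lists. Over all genes, 40.42% were called higher and 40.98% lower with Dox at 24 h, 27.96% and 27.81% with 5FU, and 18.17% and 19.05% with Ace. At 6 h the shares were 31.53% and 32.71% with Dox, 23.42% and 24.48% with 5FU, and 16.52% and 15.22% with Ace. Of 6 other ErbB ligands, Tgfa and Nrg2 had a row. Tgfa, which encodes the EGFR ligand TGF-alpha, was raised by Ace at 6 h (0.78 ± 0.14, FDR 3.31e-06) and by all 3 drugs at 24 h, by 0.53 ± 0.17 with 5FU (FDR 0.00548), 0.99 ± 0.16 with Ace (FDR 2.49e-07) and 1.68 ± 0.15 with Dox (FDR 6.99e-16). At 24 h its levels were 4.08, 5.24 and 6.51 CPM in Dox and 1.14, 1.60 and 2.51 CPM in DMSO2, without overlap. Nrg2, a second neuregulin gene, had 27 to 82 counts a library in Dox at 24 h and 0 to 4 in DMSO2 (FDR 1e-17). With so few control counts no fold is given for it.

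Of 11 genes of ligand release, 4 rose and 4 fell with Dox at 24 h, beside 40.42% and 40.98% of all genes. The ADAM proteases went in both directions. Adam17, the main sheddase of EGFR ligands, rose by 0.26 ± 0.04 (FDR 3.44e-09), while Adam10 fell by 1.15, Adam12 by 1.26, Adam19 by 1.78 and Adam9 by 0.66 on the log2 scale. Rhbdf2, whose product helps ADAM17 to mature, rose by 1.36 ± 0.09 (FDR 1.35e-21), Furin by 0.40 and Timp3, which encodes an inhibitor of ADAM proteases, by 1.80. With 5FU at 24 h 2 genes of the list rose and 5 fell (27.96% and 27.81% of all genes), with Ace 1 and 3 (18.17% and 19.05%). Adam12 was lower in all 6 drug comparisons and furthest with 5FU at 24 h, at -2.35 ± 0.14 (FDR 8.42e-22). Its 24 h levels were 6.38, 8.05 and 8.66 CPM in 5FU and 21.1, 43.1 and 47.9 CPM in DMSO1. At 6 h the list had 0 genes up and 5 down with 5FU (23.42% and 24.48% of all genes), where Adam19 changed by -1.21 ± 0.11 (FDR 3.2e-15). It had 2 up and 2 down with Ace (16.52% and 15.22%), and 3 up and 3 down with Dox (31.53% and 32.71%).

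The inhibitors and feedback genes of the receptors (21 of 21 with a row) were counted at 24 h first. With Dox 11 rose and 5 fell (40.42% and 40.98% of all genes), with 5FU 2 rose and 12 fell (27.96% and 27.81%) and with Ace 2 rose and 7 fell (18.17% and 19.05%). The difference between the drugs was not tested for the list. The list medians were 0.21, -0.34 and -0.18, beside medians of 0.0028, -0.0094 and -0.00082 over all genes. Spry4, a Sprouty inhibitor of the Ras and MAP kinase branch, stood at 181, 259 and 325 CPM in Dox against 24.6, 29.1 and 35.1 CPM in DMSO2, an increase of 3.06 ± 0.10 (FDR 3.22e-37). Dusp4, a phosphatase of MAP kinases, stood at 105, 110 and 131 CPM against 16.5, 17.9 and 19.9 CPM (2.68 ± 0.07, FDR 2.31e-41). Errfi1, whose product binds and blocks the EGFR kinase, rose with Dox by 0.87 ± 0.07 (FDR 7.27e-18) and fell by 0.86 with 5FU and by 0.74 with Ace.

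Other members of this list kept 1 direction at 24 h. Socs4, a suppressor of cytokine signalling that acts on EGFR, rose with Dox by 2.08, with 5FU by 0.94 and with Ace by 0.35. Spry1 was lower with each drug, by -1.28, -1.52 and -1.07 in the same order. At 6 h 8 genes of the list rose and 7 fell with 5FU (23.42% and 24.48% of all genes), 3 rose and 4 fell with Ace (16.52% and 15.22%), and 9 rose and 7 fell with Dox (31.53% and 32.71%). Dusp4 was at -1.44 ± 0.10 with 5FU and 0.63 ± 0.08 with Dox at 6 h (FDR 1.08e-19 and 6.79e-10). The largest increases of the list at 6 h were those of Socs4 with 5FU (1.297 ± 0.09, FDR 1.54e-18) and of Spry4 with Dox (1.55 ± 0.10, FDR 1.02e-20). Lrig3, of a family of membrane proteins that includes negative regulators of ErbB receptors, rose with 5FU by 1.004 and with Dox by 1.19 and Socs5 fell with Dox by 1.09 (FDR 9.76e-31), each at 6 h.

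Adaptors and kinases downstream of the receptors (38 of 39 with a row) gave 21 genes that rose and 12 that fell with Dox at 24 h (40.42% and 40.98% of all genes), 13 and 13 with 5FU (27.96% and 27.81%), and 6 and 8 with Ace (18.17% and 19.05%). At 6 h these counts were 11 and 12 (31.53% and 32.71% of all genes), 5 and 12 (23.42% and 24.48%), and 8 and 9 (16.52% and 15.22%). Stat5a, a transcription factor activated by ErbB4, fell with Dox by 1.34 at 6 h (FDR 1.17e-27) and by 1.54 at 24 h (FDR 4.47e-32). Its levels at 24 h were 7.83, 10.0 and 11.1 CPM against 25.9, 27.2 and 32.3 CPM. Among the changes with the other drugs, Pik3cb, a catalytic subunit of PI3 kinase, rose by 0.71 ± 0.08 with Ace at 6 h (FDR 4.61e-11) and the GTPase gene Nras by 0.79 ± 0.06 with 5FU at 24 h (FDR 7.91e-18). With Ace at 24 h the kinase genes Map2k2 and Pdpk1 rose by 0.38 and 0.35.

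Markers of the cell types also changed with the drugs. With Dox at 24 h, 40.42% of all genes were called higher and 40.98% lower. The summed cardiomyocyte markers there were 12414 to 16644 CPM, against 33869 to 43443 CPM in DMSO2, and 0 of the 9 rose and 8 fell. The fibroblast sum was 1947 to 4101 against 15171 to 18964 CPM (0 rose and 10 fell of 10). The endothelial sum was 157 to 225 against 365 to 460 CPM (1 rose and 8 fell of 9). Cldn5 was at 0 to 3 counts in Dox libraries against 342 to 703, and Cdh5 at 5.08 to 10.4 against 87.0 to 117 CPM. Both fell further than the endothelial sum, whose median was 195 CPM in Dox against 415 CPM in DMSO2. Macrophage markers summed to 52.9 to 71.0 against 124 to 151 CPM (1 rose and 9 fell of 10) and the 3 Schwann cell markers with a row, of 5, to 2.54 to 3.75 against 13.3 to 21.4 CPM (0 rose and 2 fell). Smooth muscle markers summed to 521 to 1727 CPM (median 1535) against 552 to 734 CPM (median 639), and 4 rose and 0 fell of 5. Epicardial markers summed to 17.5 to 28.3 against 11.96 to 16.5 CPM (2 rose and 3 fell of 5).

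With 5FU at 24 h the cardiomyocyte sum was 23814 to 25646 against 33449 to 38272 CPM in DMSO1, and the fibroblast sum 5201 to 5872 against 10018 to 19963 CPM. With Ace at 24 h the fibroblast sum was 7307 to 9334 CPM, below that of DMSO2, and the cardiomyocyte sum 34543 to 47677 CPM. The endothelial sum was lower without overlap with both drugs at 24 h, at 180 to 208 against 275 to 379 CPM with 5FU and 229 to 360 against 365 to 460 CPM with Ace. The macrophage sum was lower without overlap also, at 103 to 119 against 120 to 154 CPM with 5FU and 89.7 to 110.1 against 124 to 151 CPM with Ace. At 6 h the cardiomyocyte sum was 33822 to 44184 CPM with Dox and 33384 to 39870 CPM in DMSO2, and the fibroblast sum 7809 to 10232 against 9739 to 14517 CPM. The endothelial sum was 175 to 225 against 324 to 410 CPM, without overlap, and the smooth muscle sum 1106 to 3270 (median 2873) against 817 to 1202 CPM (median 898). With Ace at 6 h the endothelial sum was lower without overlap too, at 242 to 297 CPM. The fibroblast sum with Ace, 7375 to 11002 CPM, overlapped that of DMSO2. With 5FU at 6 h the endothelial sum was 214 to 278 against 218 to 300 CPM in DMSO1, overlapping. The fibroblast sum with 5FU overlapped as well, at 6443 to 10802 against 6546 to 10964 CPM. At 6 h Erbb4 was lower with Dox, while the cardiomyocyte sums overlapped, with medians of 40822 CPM in Dox and 36351 CPM in DMSO2. The part of any cell type in the changes of the receptors and ligands was not tested.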

How the data were processed

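The counts were estimated counts per gene as deposited by the authors, who pseudoaligned reads to the Ensembl rat transcriptome with kallisto (version 0.46.0), summed transcripts to Entrez genes with tximport and removed genes with consistently under 10 counts. The deposited values were whole numbers and were used without further rounding. The table held 65 libraries and 14554 genes, and 14009 of the genes were matched to a symbol through the RefSeq annotation of GRCr8. The DESeq2 step of the authors was not used. Reads were not separated by isoform, and lengths were not used. Column names gave the group and no replicate number, so libraries were numbered in column order as names only.

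All 10 groups were fitted together with edgeR (version 4.0.16) glmQLFit and glmQLFTest after TMM scaling (factors 0.859 to 1.07). An FDR below 0.01 was called in 17 comparisons, SE was taken from the test statistic, and the 95% intervals cover the spread between libraries. No gene was below the filter of 10 counts in at least 1 library. Total counts of 14332827 to 25738297 a library set the precision of low genes. Likeness was the Pearson correlation of log2 CPM (prior count 2). The method was tested on simulated counts in which few genes were changed, in a single group. That test cannot show how the method behaves where most genes are called, as with Dox at 24 h. Motifs were searched in RefSeq promoter windows cut to the 250 bases before the start. Alternatives were DESeq2 (version 1.42.0) with its size factors and Wald test, library size alone, filterByExpr, no filter, the compared groups alone, other thresholds and leaving out each library.

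The genes and gene lists were chosen with earlier results of these data known. Named were every receptor and ligand, the other ligands, release and inhibitor genes, and in each drug comparison the 2 largest increases and 2 largest decreases of the pathway lists among called genes with a mean count of at least 100. For each member with a median of at least 10 counts the 2 most alike genes were named.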

Additional observations from a re-analysis of the deposited data

Results flagged for a closer look

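In 90 sets of library values (9 genes in 10 groups), 3 held a library that stood far from the rest of its group by Dixon's test, where chance gives about 1 in 20. Erbb2 was at 97.3 CPM in Dox library 7 at 24 h, above the next highest at 73.6 CPM, and this library also had the highest total count of all, 25738297. The same library was the lowest of its group for Egfr, Erbb3, Nrg1, Hbegf and Areg and the highest for Btc, without being flagged for these genes. Hbegf was at 9.49 CPM in 5FU library 1 at 24 h, the lowest of its group. Areg was at 0.763 CPM in DMSO1 library 3 at 6 h. That library was also the lowest of its group for Hbegf (8.63 CPM), Egfr (11.9 CPM), Erbb3 (2.24 CPM) and Ereg (0.286 CPM), without being flagged for these.

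Of 27 tests of whether a drug effect differed between 24 and 6 h, 11 were called by edgeR (FDR below 0.01). Over all genes, 39.5% were called for 5FU, 11.6% for Ace and 64.8% for Dox, so the count alone does not set the family apart. For 5FU the log2 differences were 0.70 for Erbb2, 0.84 for Erbb3 (FDR 0.00918) and -0.84 for Erbb4. For Ace the difference was -0.69 for Erbb4. For Dox they were 3.16 for Erbb3, -2.94 for Erbb4, 0.87 for Nrg1, 1.96 for Hbegf, 3.28 for Areg, 2.63 for Ereg and -0.67 for Btc. The Erbb3 difference for 5FU lost its call in 16 of the 24 fits that left out 1 library, with values of 0.75 to 1.10 (FDR 0.000274 to 0.0246).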

How the results depend on the processing

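No paired analysis was possible because the columns of the count table carry the group and no replicate number. No called value of the 9 genes reversed its direction under any alternative. With a minimum of 1 on the log2 scale the counts of called genes are given with the share of all genes. At 6 h they were 0 with 5FU (6.03%), 0 with Ace (2.64%) and 1 with Dox (15.4%). At 24 h they were 0 with 5FU (10.2%), 0 with Ace (6.12%) and 8 with Dox (39.1%). Between the vehicles there were 0 at 6 h (1.13%) and 0 at 24 h (0.0550%). Over time there were 3 in DMSO1 (10.5%) and 2 in DMSO2 (6.86%). The changes of the 5FU, Ace and Dox effects over time gave 0 (7.20%), 0 (2.34%) and 5 (25.9%). Dox against Ace gave 2 at 6 h (14.4%) and 7 at 24 h (36.2%). The Dox effect minus the 5FU effect gave 0 at 6 h (13.6%) and 7 at 24 h (36.7%). Counts that changed with an FDR below 0.1 included 5 for Ace at 6 h and 7 at 24 h, where 7120 and 7863 of the 14554 genes were called. Between the vehicles at 6 h the count was 3 (4751 of all genes), and for the change of the Ace effect 2 (3867). With library size as the only scaling the count was 2 between the vehicles at 6 h (2443 of all genes), where Egfr joined Hbegf (FDR 0.00933).

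Library size alone also ended the calls of Erbb2 with Ace at 24 h (-0.25, FDR 0.0126), of Btc over time in DMSO2 (0.38, FDR 0.0121) and of Btc in the change of the Dox effect (-0.48, FDR 0.0355), added those of Erbb3 with 5FU at 6 h (FDR 0.00703) and Hbegf over time in DMSO2 (FDR 0.00414), and shifted the median of all genes to -0.15 for Dox at 6 h, -0.108 for Dox against Ace at 6 h and 0.266 for the change of the Dox effect. The share of higher genes among all called moved from 49.1% to 33.8% for Dox at 6 h, from 48.9% to 36.8% for 5FU at 6 h, from 48.8% to 61.4% for Ace at 24 h, from 59.9% to 29.6% and from 31.7% to 80.7% between the vehicles at 6 and 24 h, from 51.4% to 40.6% over time in DMSO2, from 47.9% to 77.1% and from 52.5% to 64.8% for the changes of the Ace and Dox effects, and from 49.4% to 36.7% for Dox against Ace at 6 h. The fits of the compared groups alone ended the calls of Erbb3 in the change of the 5FU effect (FDR 0.0355), of Btc in that of Dox (FDR 0.0126) and of Btc in Dox against Ace at 6 h (FDR 0.028), and added those of Nrg1 with Ace at 6 h (FDR 0.00544), Erbb4 with Ace at 24 h (FDR 0.00536), Hbegf over time in DMSO2 (FDR 0.0014) and Egfr in the Dox effect minus the 5FU effect at 24 h (FDR 0.00909). Over all genes they called 17 in place of 63 between the vehicles at 24 h, 1565 in place of 2397 at 6 h and 2684 in place of 1694 for the change of the Ace effect, and DESeq2 called 184 between the vehicles at 24 h. DESeq2 added the calls of Erbb3 with Dox at 6 h (FDR 0.0082) and of Erbb4 with Ace at 24 h (FDR 0.00734). The causes were not tested.

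Leaving out 1 library gave counts with Dox of 6 to 7 at 6 h and 9 to 9 at 24 h, with Ace of 2 to 4 and 4 to 5, with 5FU of 3 to 4 and 3 to 3, 1 to 1 and 0 to 0 between the vehicles, 6 to 6 and 4 to 5 over time in DMSO1 and DMSO2, 2 to 3, 1 to 1 and 6 to 7 for the changes of the 5FU, Ace and Dox effects, 6 to 7 and 9 to 9 for Dox against Ace, and 5 to 5 and 8 to 9 for the Dox effect minus the 5FU effect. The shares of all genes called with every library in the fit are given above. The call of Btc over time in DMSO2 was lost without DMSO2 library 7 at 24 h or library 4 or 6 at 6 h (FDR 0.0112 to 0.0152). At 6 h Areg had 9 to 38 and Ereg 2 to 22 counts a library, which limits the precision of their comparisons.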
